A study of Homo sapiens with 6 samples.

Results

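The HOX genes of the HOXA, HOXB, HOXC and HOXD clusters were followed in MDA-MB-453, a line of luminal human breast cancer cells. Members were the rows of the deposited count table whose symbol was HOX, a cluster letter from A to D and a number, which gave 35 of the 36517 rows. GENCODE release 29 annotates 39 such genes. HOXD3, HOXD4, HOXD9 and HOXD11 had no row and were not analysed here. The smallest total of a row over all libraries was 1, so a gene without any count may have no row. Whether these genes are missing for that reason could not be told. Cells of the control group (3 libraries) had received a negative-control hairpin by lentivirus, and cells of the shtRF group (3 libraries) a lentiviral hairpin directed at tRF-1-Ser, a small RNA cut from a serine tRNA precursor. RNA of both groups was taken at day 3, and both carried a lentiviral hairpin. The targeted RNA is too short for an mRNA library, so the knockdown itself was not measured in these data. Whether replicates were separate transductions is not stated in the sources used here, so p-values measure the spread between these libraries, which may be technical.

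HOX proteins are homeodomain transcription factors that give cells a position along the body axis. Each cluster lies on 1 chromosome with its genes read in 1 direction, and paralogous genes in different clusters carry the same number. During development the low-numbered genes at the 3′ end are switched on first and in anterior tissue, and the high-numbered genes at the 5′ end later and in posterior tissue. Polycomb complexes keep unused HOX chromatin repressed, Trithorax and Menin complexes keep used HOX chromatin active, and PBX, MEIS and PKNOX proteins bind DNA together with HOX proteins.

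The libraries held between 63541413 and 78917459 counts. Of the markers of the line, ERBB2, KRT8, KRT18, EPCAM, GATA3 and FOXA1 had means of 33.8 to 307 RPKM over the 6 libraries. RPKM stands for reads per kilobase of exonic length and per library total. PIP had a mean of 4.06 RPKM, with 1.81 RPKM in control and 6.31 RPKM in shtRF. At the threshold used below, KRT8, KRT18 and PIP were higher in shtRF, ERBB2 and GATA3 lower, and EPCAM and FOXA1 neither. Leukocyte and endothelial markers were near 0, whereas COL1A1, a fibroblast marker, had a mean of 32.2 CPM in the control group and 20.9 CPM in the shtRF group, CPM being the count scaled to a common library total with TMM factors. The other fibroblast markers COL1A2, DCN and PDGFRB had means of at most 0.19 CPM in either group. Of the basal markers, TP63 had means of 2.88 CPM in control and 1.985 CPM in shtRF. KRT5 and KRT14 had means of at most 0.20 CPM in either group.

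Most HOX counts of these cells came from the HOXC cluster, and the expressed HOX genes lay in HOXC and HOXB. In each of the 6 libraries HOXC genes took 88.4% to 90.3% of all HOX counts, HOXB genes took 9.33% to 10.9%, and HOXA and HOXD genes together took the small remainder. Of the 35 listed genes, 14 were silent, which here means at most 3 counts in every library, and 8 more had traces too small to test. Another 4 were tested with a mean under 1 RPKM, and 9 had a mean of at least 1 RPKM and are called expressed. The expressed genes were HOXC13, HOXC11, HOXC10, HOXC9, HOXC8, HOXC6, HOXC4, HOXB3 and HOXB2. The 13 paralog groups were thus used unevenly. Among listed genes, 9 groups had exactly 1 expressed gene, no group had more, and the other 4 had none, with the unlisted HOXD genes not counted in groups 3, 4, 9 and 11.

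**Figure D1:**
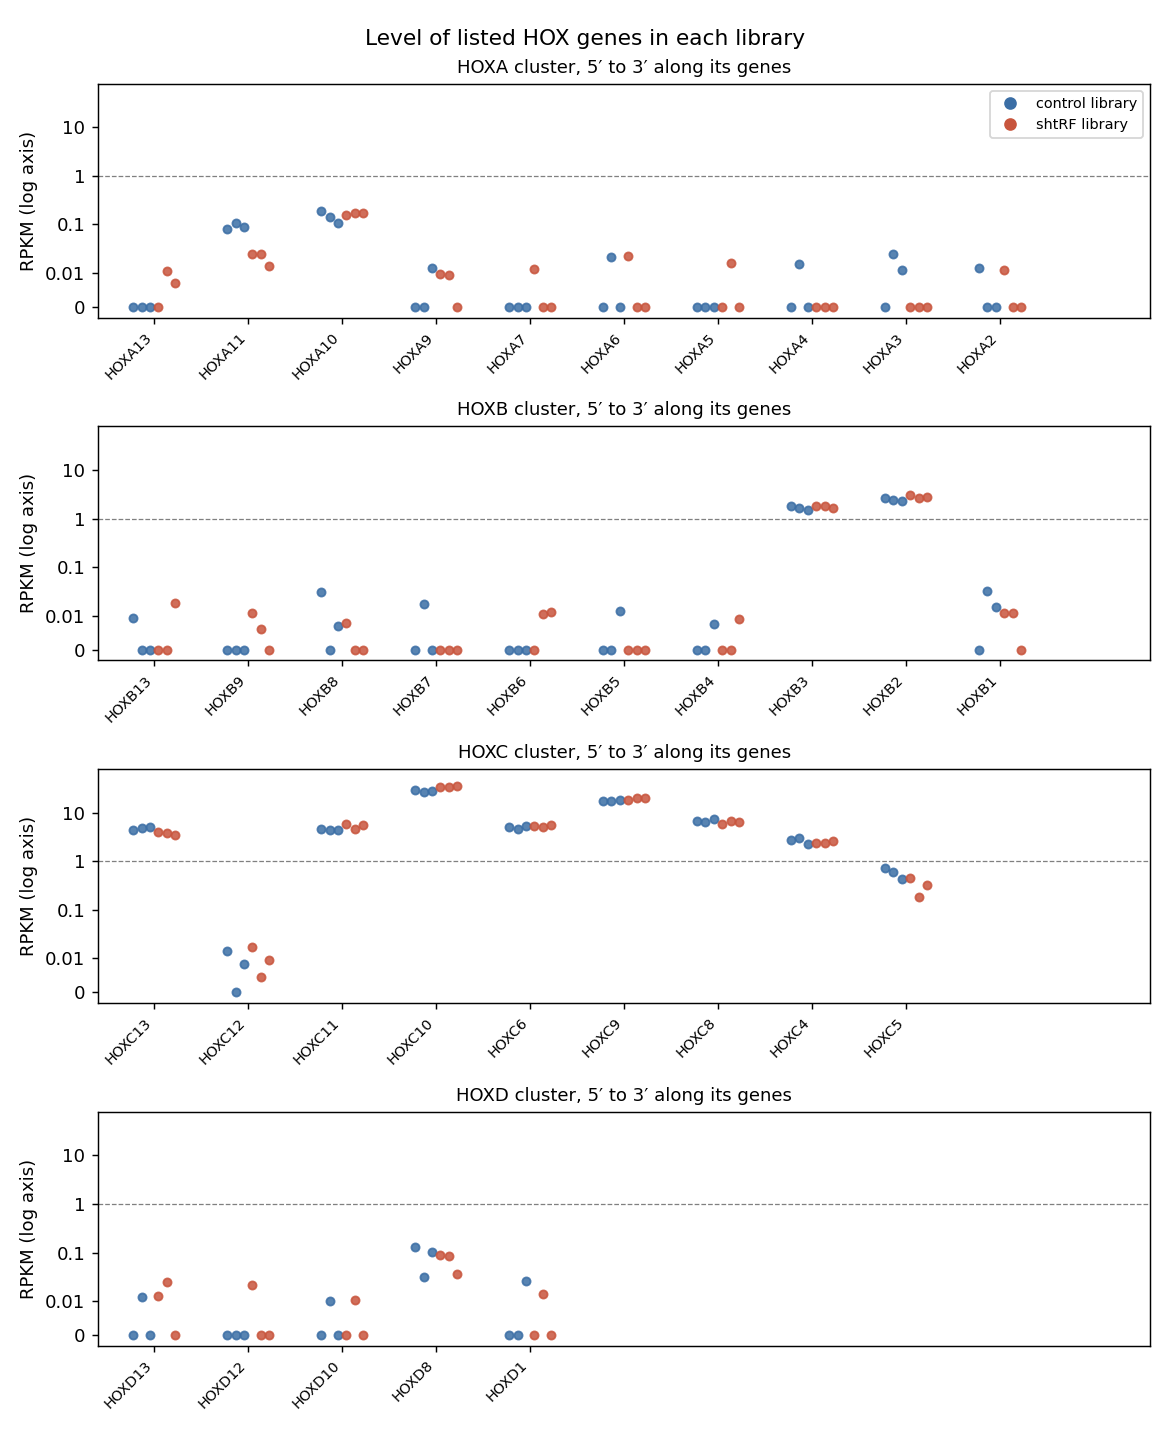
RPKM on a log axis for listed HOX genes in each library, with 1 panel per cluster and genes ordered along their direction of transcription. Values of 0 are drawn at the bottom tick and the dashed line marks 1 RPKM. Points above the line are found for 7 HOXC and 2 HOXB genes.

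Per length, HOXC10 was the highest HOX gene with a mean of 31.1 RPKM over the 6 libraries, above 92.5% of all tested genes. HOXC9 followed with 18.7 RPKM and HOXC8 with 6.59 RPKM, and the 6 libraries of each of these genes did not overlap those of the next gene in the order. HOXC6 with 5.13 RPKM, HOXC11 with 4.95 RPKM and HOXC13 with 4.30 RPKM came next, and the libraries of each overlapped those of the following gene within this trio. HOXB2 with 2.65 RPKM and HOXC4 with 2.57 RPKM also overlapped. HOXB3 with 1.73 RPKM stood apart from both its neighbours in the order, and HOXC5 with 0.461 RPKM was the highest of the low genes.

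The comparison of shtRF with control libraries asks how the knockdown changed each HOX gene. Of 13 HOX genes tested by edgeR's quasi-likelihood test, 3 were higher in shtRF (HOXC10, HOXC11 and HOXC9) and 3 were lower (HOXC13, HOXC5 and HOXA11) at a Benjamini-Hochberg adjusted p under 0.05. Over all 19628 tested genes 39.5% were called, 20.6% higher and 18.9% lower, so that a called share of 46.2% of the HOX genes lay near the background. The median log2 fold change was 0.12 over the tested HOX genes and -0.0025 over all tested genes. Changes of expressed HOX genes were small, with fold changes of called genes between 0.820 and 1.28. HOXA11 passed the filter on low counts only through the control libraries, where it is high, so its place among the lower genes is no support for a direction of the members. It alone fell by more than 2-fold (3.11% of all tested genes did), and no HOX gene rose by more than 2-fold, against 2.66%. The highest log2 fold change of a tested HOX gene was 0.35. All 3 shtRF libraries lay above all 3 control libraries in CPM for 5 HOX genes and below them for 2, against 24.9% and 23.8% of all tested genes. The groups were thus apart for 7 of 13 HOX genes, against 48.7%.

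**Figure D2:**
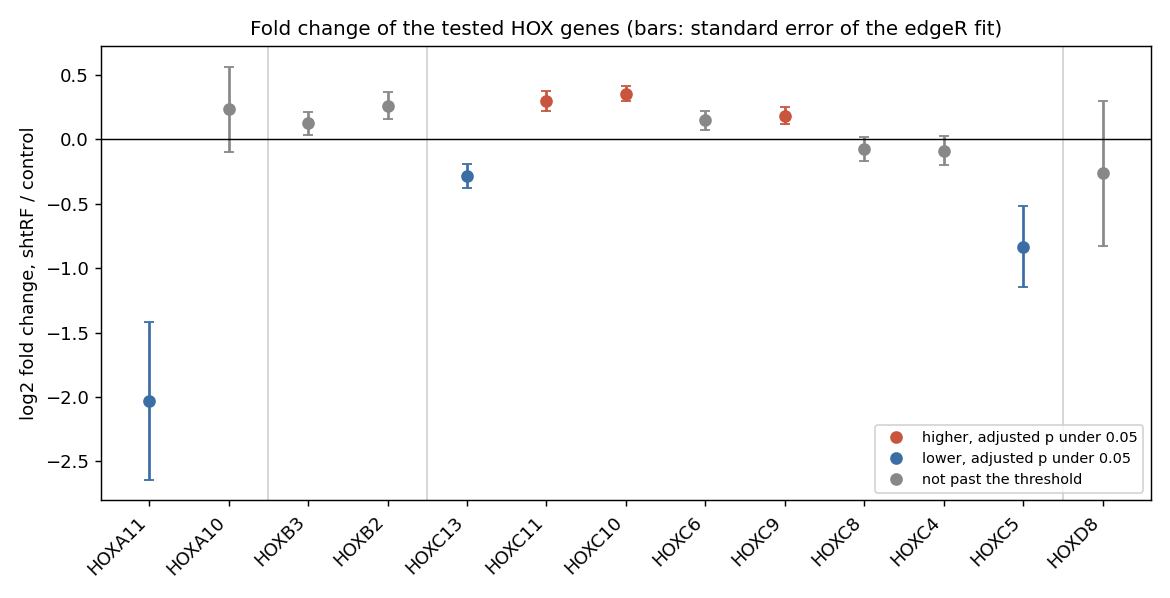
The log2 fold change (shtRF over control) of the 13 tested HOX genes, ordered by cluster and along the direction of transcription, with the standard error of the edgeR fit. HOXC11, HOXC10 and HOXC9 lie above 0 and past the threshold, and HOXC13, HOXC5 and HOXA11 lie below 0 and past it.

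The HOXC cluster spans chr12:53938765-54056030 (GRCh38, plus strand) from HOXC13 to HOXC4, and 8 of its 9 listed genes were tested. HOXC13, which regulates hair and nail keratin genes, opens the cluster. Its level was 10.5, 11.4 and 12.4 CPM in the control libraries and 9.78, 9.54 and 8.82 CPM in the shtRF libraries. Every shtRF library was below every control library. The log2 fold change was -0.29 ± 0.09 (SE), with an adjusted p of 0.0156. The call was lost without control replicate 3 (adjusted p = 0.0782) and without shtRF replicate 3 (adjusted p = 0.0842). HOXC13 shares 7.10% of its exonic bases with the antisense transcript HOXC13-AS.

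HOXC12, the next gene, had between 0 and 4 counts in each library and was not tested. HOXC11, a posterior gene of limb and spinal cord patterning, had 15.1, 14.2 and 14.3 CPM in control libraries and 19.0, 16.0 and 18.5 CPM in shtRF libraries. The groups did not overlap. Its log2 fold change was 0.30 ± 0.08 (SE, adjusted p = 0.00530). Its exons overlap those of no other row. On the log2(RPKM + 1) scale tested with limma, the adjusted p was 0.0819.

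HOXC10, known for lumbar motor neuron identity, showed the clearest rise. It had 66.0, 59.6 and 66.2 CPM in the control libraries and 77.6, 82.6 and 84.6 CPM in the shtRF libraries, with 4296 to 5673 counts behind each value. All shtRF libraries lay above all control libraries. The mean was 63.9 ± 3.76 CPM (SD, n = 3) in control and 81.6 ± 3.60 CPM (SD, n = 3) in shtRF. The rise was 1.28-fold, or 0.35 ± 0.06 (SE) on the log2 scale, with an adjusted p of 4.03e-05. HOXC10 was the only HOX gene whose call past the threshold held under all 16 alternative settings, with adjusted p between 2.18e-07 and 0.00342. It took 39.6% to 41.3% of all HOXC counts in control libraries and 44.6% to 45.5% in shtRF libraries. Of the exonic bases of HOXC10, 166 are shared with the same-strand row RP11-834C11.12, and its rise outside them was not tested.

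Because HOX genes share the homeobox, the 180 bases that encode the DNA-binding homeodomain, reads of paralogs could in principle be mistaken for each other. The homeoboxes of HOXC10, its paralogs HOXA10 and HOXD10, and HOXC13 are shown to let the highest HOX gene be set beside its relatives. They are coding strand sequence from GENCODE release 29 transcripts, and capitals mark the bases that differ from HOXC10.
HOXC10: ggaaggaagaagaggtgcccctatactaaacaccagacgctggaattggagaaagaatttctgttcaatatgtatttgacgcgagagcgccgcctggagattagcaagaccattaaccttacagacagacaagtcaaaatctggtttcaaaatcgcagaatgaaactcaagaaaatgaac
HOXA10: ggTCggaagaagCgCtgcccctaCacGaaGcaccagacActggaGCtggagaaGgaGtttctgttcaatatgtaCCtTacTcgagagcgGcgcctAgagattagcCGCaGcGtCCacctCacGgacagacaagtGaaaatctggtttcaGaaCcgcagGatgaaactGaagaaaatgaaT
HOXD10: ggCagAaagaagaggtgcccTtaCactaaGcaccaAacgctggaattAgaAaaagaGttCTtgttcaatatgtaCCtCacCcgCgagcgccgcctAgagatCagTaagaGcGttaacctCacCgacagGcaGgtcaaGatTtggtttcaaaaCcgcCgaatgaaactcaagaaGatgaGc
HOXC13: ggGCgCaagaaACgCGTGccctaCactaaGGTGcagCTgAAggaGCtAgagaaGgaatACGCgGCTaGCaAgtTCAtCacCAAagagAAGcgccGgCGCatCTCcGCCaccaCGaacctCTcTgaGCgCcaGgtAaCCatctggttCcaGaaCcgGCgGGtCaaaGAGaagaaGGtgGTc
The homeobox of HOXC10 is identical to that of HOXD10 in 149 of 180 bases (82.8%), to that of HOXA10 in 147 (81.7%) and to that of HOXC13 in 101 (56.1%). Across 736 pairs of HOX genes with no exon in common, the longest exact run shared by their transcripts had a median of 15 bases and reached 62 bases, shorter than a read of 150 bases before trimming. Exact runs do not show how an aligner that allows mismatches places reads, so whether reads of paralogs were mistaken was not tested. The paralogs of HOXC10 were far lower in the same libraries, with 32 to 46 counts per library for HOXA10 and at most 2 for HOXD10.

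Downstream of HOXC10 lies the first exon of HOXC6, whose annotated span runs past HOXC9 and HOXC8. HOXC6, a gene of the anterior thorax, had 17.7, 15.8 and 18.3 CPM in the control libraries and 18.7, 18.7 and 20.0 CPM in the shtRF libraries. The groups were apart, but the log2 fold change of 0.15 ± 0.08 (SE) did not pass the threshold (adjusted p = 0.138). HOXC6 shares 15.7% of its exonic bases with other rows, mainly HOXC4. HOXC9, a gene of thoracic identity, had 29.3, 28.5 and 30.4 CPM in control libraries and 30.6, 35.5 and 34.0 CPM in shtRF libraries. The groups lay close but did not overlap. Its log2 fold change was 0.18 ± 0.07 (SE, adjusted p = 0.0330). The call was lost without control replicate 1 (adjusted p = 0.0834), control replicate 2 (0.132), shtRF replicate 2 (0.182) or shtRF replicate 3 (0.107), and under 4 further settings.

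HOXC8, which acts in brachial and thoracic patterning, had 12.7, 11.7 and 13.9 CPM in control libraries and 10.8, 13.3 and 12.4 CPM in shtRF libraries. The groups overlapped, and the log2 fold change was -0.07 ± 0.09 (SE, adjusted p = 0.566). HOXC4, a gene of cervical level, had 7.38, 8.10 and 6.19 CPM in control libraries and 6.52, 6.66 and 7.19 CPM in shtRF libraries. These groups overlapped as well (log2 fold change -0.09 ± 0.11 SE, adjusted p = 0.567).

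HOXC5 was low, with 86, 81 and 63 counts in control libraries and 57, 24 and 38 counts in shtRF libraries. In CPM the groups overlapped, at 0.789 to 1.32 in control and 0.350 to 0.812 in shtRF. It was called lower (log2 fold change -0.84 ± 0.31 SE, adjusted p = 0.0394). The call was lost without control replicate 1 (adjusted p = 0.168), control replicate 2 (0.0861), shtRF replicate 2 (0.186) or shtRF replicate 3 (0.0817), and 59.9% of the exonic bases of HOXC5 lie in exons of the same-strand row RP11-834C11.14.

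HOXC4 and HOXC5 are also joined by a start site. RefSeq (GRCh38.p14) places the same 250 bases, chr12:54016638-54016887 on the plus strand, before a start annotated to both genes. The counted row of HOXC4 begins at 54016931, near this start. That of HOXC5 begins only at 54032853, so the HOXC5 counts do not include an exon at this start. The stretch is shown because it is common to a gene whose groups overlapped and to one called lower.
HOXC4 and HOXC5: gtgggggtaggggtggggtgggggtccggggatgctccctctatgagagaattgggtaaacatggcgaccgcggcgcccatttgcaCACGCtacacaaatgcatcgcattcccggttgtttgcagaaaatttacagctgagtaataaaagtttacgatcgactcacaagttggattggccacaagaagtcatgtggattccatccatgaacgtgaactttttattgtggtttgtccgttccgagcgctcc
Capitals mark the match to GCGTG, read as CACGC on the plus strand. Of 5 motifs searched on both strands from 250 bases before to 50 bases after the start, GCGTG, the core site of the dioxin receptor, alone was present, and 36.5% of all 35116 RefSeq windows of that length hold it. The other motifs were the TATA box TATAAA, the E-box CACGTG read by MYC, the joint PBX and HOX site TGATTNAT and the DR5 repeat bound by retinoic acid receptors. Windows were at hand for 20 HOX genes, among which HOXC10 and HOXC13 were not.

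**Figure D3:**
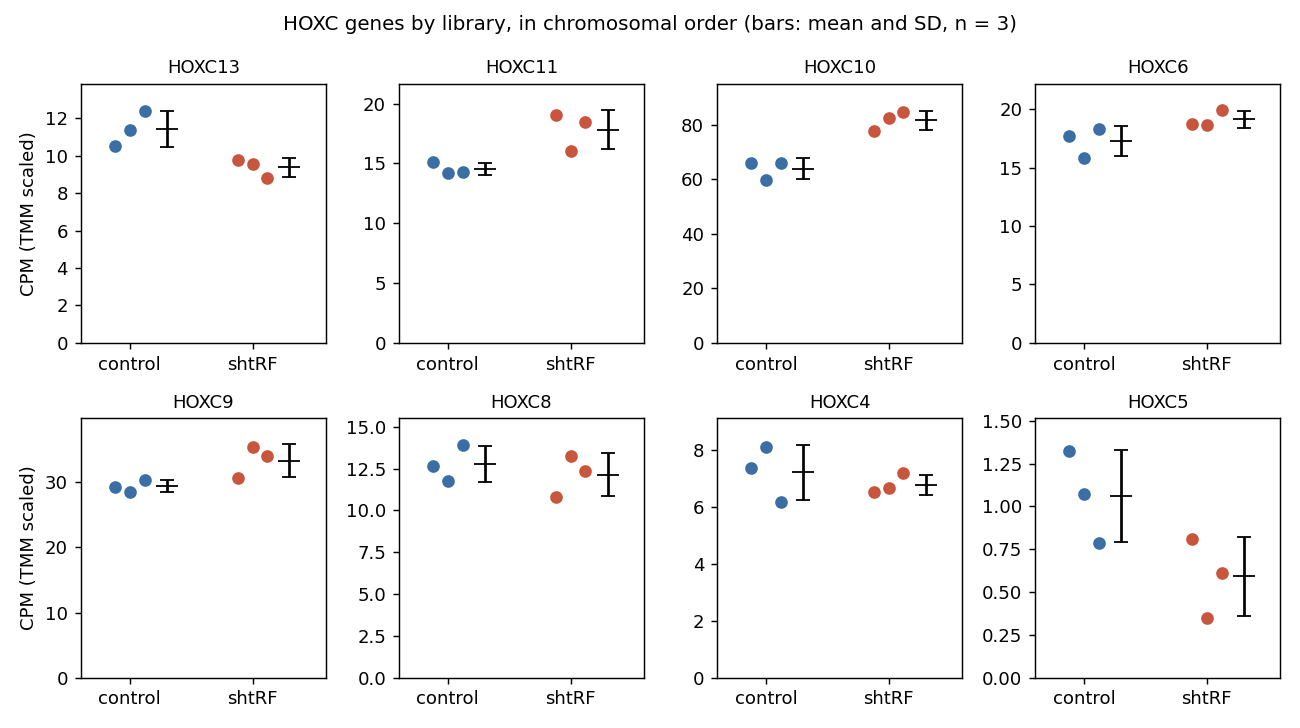
CPM scaled by TMM in each library for the 8 tested HOXC genes in chromosomal order of their starts, with points for libraries and bars for the mean and SD of 3 libraries. The shtRF points lie above the control points for HOXC11, HOXC10, HOXC6 and HOXC9 and below them for HOXC13.

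Summed over its genes, the HOXC cluster had 157.7 ± 6.42 CPM in control and 180.9 ± 6.23 CPM in shtRF libraries (SD, n = 3). Without HOXC10 the sums were 93.7 ± 2.80 and 99.2 ± 2.64 CPM, and the groups overlapped. Reads in bases shared by neighbouring genes enter these sums more than once. The ratio of HOXC10 to HOXC13 counts, which does not depend on how libraries are scaled, was 6.28, 5.25 and 5.33 in control libraries and 7.94, 8.66 and 9.59 in shtRF libraries. This pair was chosen after the values of its genes were seen, so the ratio is given as a description without a test.

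The other transcripts inside the clusters gave 29 rows, of which 18 were tested, 2 were called higher and 3 lower, and the median log2 fold change was -0.16. HOTAIR, a long non-coding RNA known for its ties to Polycomb complexes, runs against the HOX genes between HOXC12 and HOXC11, and was named after its values were seen. It had 1479, 1841 and 1859 counts in control libraries and 1367, 1317 and 1306 in shtRF libraries. In CPM the shtRF libraries were all below the control libraries, and the log2 fold change was -0.24 ± 0.07 (SE, adjusted p = 0.00871). Without shtRF replicate 2 the adjusted p was 0.0535. The HOTAIR row therefore fell beside HOXC11, which rose. The short rows HOTAIR_2 and HOTAIR_3 lie wholly in exons of HOTAIR but are annotated on the opposite strand. They were named after their values were seen. Whether their counts come from HOTAIR or from the opposite strand could not be told. HOTAIR_3, with 280 to 461 counts in control and 313 to 320 in shtRF libraries, overlapped between groups (log2 fold change -0.08 ± 0.13 SE, adjusted p = 0.686). HOTAIR_2 was lower in all shtRF libraries but was not called (log2 fold change -1.05 ± 0.43 SE, adjusted p = 0.0556).

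The ratio of HOTAIR to HOXC11 counts was 1.50, 1.72 and 1.63 in control libraries and 1.02, 1.20 and 1.14 in shtRF libraries. The 5′ end of the cluster held a pair of the same kind. HOXC13-AS, whose span crosses the start of the cluster and is therefore counted with the outside rows, was called higher (log2 fold change 0.30 ± 0.12 SE, adjusted p = 0.0476), while HOXC13 was lower. The ratio of HOXC13-AS to HOXC13 counts was 0.387, 0.407 and 0.348 in control and 0.547, 0.551 and 0.611 in shtRF libraries. The call of HOXC13-AS itself was lost without each of the 6 libraries in turn (adjusted p between 0.0516 and 0.142), and under other scalings, filters and tests it lay on either side of the threshold. Both pairs were chosen after their values were seen, and their ratios carry no test.

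**Figure D4:**
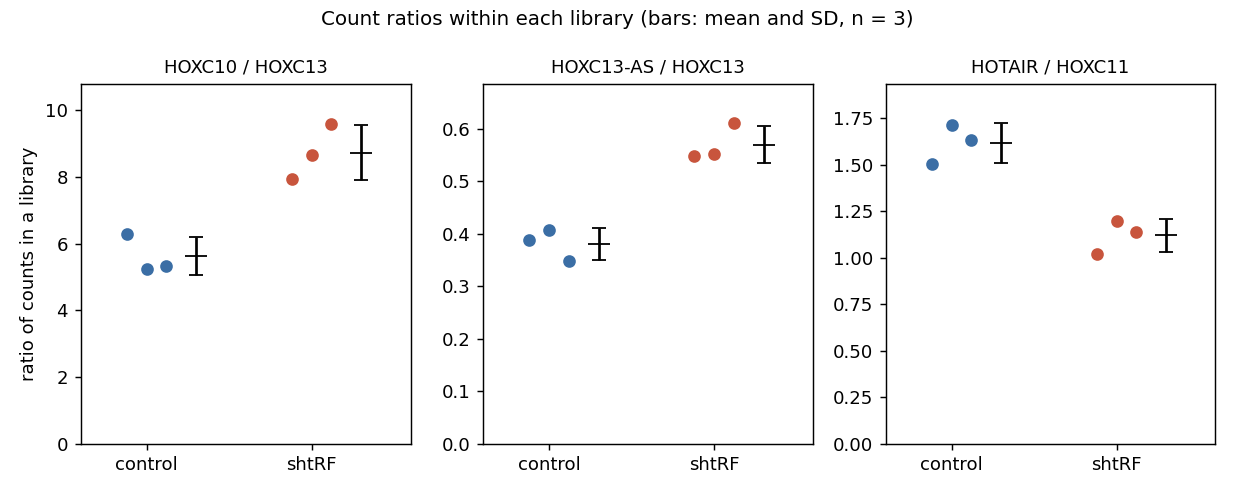
Ratio of the counts of 2 rows within each library, in 3 panels, with points for libraries and bars for the mean and SD of 3 libraries per group. In every panel the control and shtRF libraries do not overlap, with HOXC10 over HOXC13 and HOXC13-AS over HOXC13 higher in shtRF and HOTAIR over HOXC11 lower.

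RP11-834C11.12, on the strand of the HOX genes, had 2300 to 2842 counts in control and 3025 to 3283 in shtRF libraries, and rose by 0.47 ± 0.07 on the log2 scale (SE, adjusted p = 1.05e-05). All of its 777 exonic bases are also exonic in HOX rows, 166 in HOXC10 and 611 in HOXC5. HOXC5 itself had at most 86 counts in a library, so most counts of RP11-834C11.12 lie in bases shared with HOXC10. The rise of this row is therefore not taken as separate from that of HOXC10. If reads in shared bases were counted in both rows, they are also a large part of the 4296 to 5673 HOXC10 counts. How much of the HOXC10 rise lies outside the shared bases was not tested. AC012531.25, near HOXC5, fell by 0.45 on the log2 scale (SE 0.16, adjusted p = 0.0256). It lost its call without control replicate 2 or 3 or shtRF replicate 1 or 2 (adjusted p between 0.0523 and 0.0676). The antisense rows HOXC-AS1, HOXC-AS2 and HOXC-AS3 overlapped between groups and were not called. They are named to complete the antisense rows, after their values were seen.

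**Figure D5:**
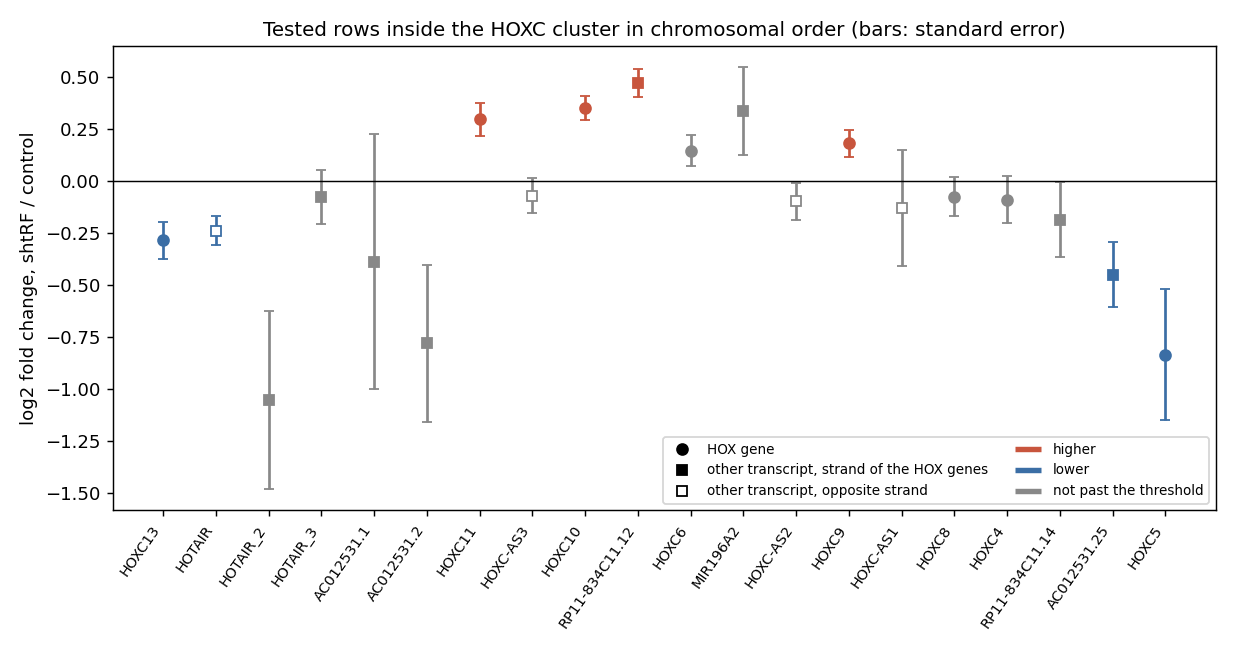
The log2 fold change (shtRF over control, bars for the standard error) of every tested row inside the HOXC cluster in chromosomal order of starts, with circles for HOX genes, squares for other transcripts and open symbols for the strand opposite to the HOX genes. HOXC11, HOXC10, RP11-834C11.12 and HOXC9 lie above 0 and past the threshold, and HOXC13, HOTAIR, AC012531.25 and HOXC5 lie below 0 and past it.

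MicroRNA genes sit between HOX genes and have HOX messages among their known targets. Mature sequences of the microRNAs encoded in the clusters are given from RefSeq (GRCh38.p14), with the seed (bases 2 to 8) in capitals. The first pair have the same seed, and miR-196a-5p is encoded in both the HOXC and the HOXB cluster and miR-196b-5p in the HOXA cluster.
hsa-miR-196a-5p: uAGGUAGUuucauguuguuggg
hsa-miR-196b-5p: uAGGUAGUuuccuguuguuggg
hsa-miR-10a-5p: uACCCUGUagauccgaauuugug
hsa-miR-615-3p: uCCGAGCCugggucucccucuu
The row MIR196A2, between HOXC10 and HOXC9 and named after its values were seen, had 70, 98 and 92 counts in control libraries and 99, 117 and 83 in shtRF libraries (log2 fold change 0.34 ± 0.21 SE, adjusted p = 0.228). Such a count comes from long RNA reads over the hairpin and does not measure the mature microRNA. MIR10A, MIR10B and MIR615 had at most 2 counts in any library, and MIR196B was not analysed here.

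The HOXB cluster (chr17:48528526-48729178, minus strand) had both its expressed genes at the 3′ end. HOXB3, an anterior gene of the hindbrain, had 13.7, 12.2 and 11.3 CPM in control libraries and 13.6, 14.3 and 12.6 CPM in shtRF libraries. The groups overlapped (log2 fold change 0.12 ± 0.09 SE, adjusted p = 0.288). HOXB2, also a hindbrain gene, had 6.03, 5.47 and 5.46 CPM in control libraries and 7.15, 6.60 and 6.53 CPM in shtRF libraries. Its groups were apart, and the log2 fold change of 0.26 ± 0.11 (SE) missed the threshold (adjusted p = 0.0564).

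Beside them, the antisense row HOXB-AS1, which shares 29.6% of its exonic bases with other rows, mainly HOXB3, had 720 to 762 counts in control and 744 to 877 in shtRF libraries. It was called higher (log2 fold change 0.25 ± 0.09 SE, adjusted p = 0.0392). The call was lost without control replicate 2 or 3 or any of the shtRF libraries (adjusted p between 0.0735 and 0.179). The other 8 HOXB genes were off or nearly so. HOXB4, HOXB5, HOXB6, HOXB7 and HOXB9 were silent, and HOXB1, HOXB8 and HOXB13 had traces of at most 6 counts in a library.

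The HOXA cluster (chromosome 7, minus strand) held no expressed gene. HOXA11, a posterior gene needed in limb and reproductive tract, was the member with the largest relative change at a very low level. It had 12, 18 and 16 counts in control libraries and 4, 4 and 2 in shtRF libraries. These are means of 0.0917 ± 0.0127 RPKM in control and 0.0209 ± 0.00632 RPKM in shtRF (SD, n = 3). All shtRF libraries were below all control libraries. The log2 fold change was -2.03 ± 0.61 (SE, adjusted p = 0.0110). The call was lost without control replicate 2 (adjusted p = 0.0511) or shtRF replicate 3 (0.0701).

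Of the exonic bases of HOXA11, 30.6% lie in exons of its antisense row HOXA11-AS, and whether reads there were assigned by strand could not be told. HOXA11-AS had 14, 18 and 14 counts in control libraries and 4, 4 and 5 in shtRF libraries (log2 fold change -1.66 ± 0.58 SE, adjusted p = 0.0272). Like HOXA11 itself, it passed the filter only through the control libraries, where it is high. Its call was lost without each of the 6 libraries in turn (adjusted p between 0.0523 and 0.104). HOXA10, next to HOXA11, had 46, 39 and 32 counts in control and 41, 46 and 40 in shtRF libraries. The groups overlapped (log2 fold change 0.23 ± 0.33 SE, adjusted p = 0.621). HOXA2, HOXA4, HOXA5, HOXA6, HOXA7 and HOXA9 were silent, and HOXA3 and HOXA13 had traces of at most 8 counts in a library.

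In the HOXD cluster (chr2:176092891-176190907, plus strand) only HOXD8 could be tested among the 5 listed genes. It had 22, 6 and 21 counts in control libraries and 16, 16 and 6 in shtRF libraries. The groups overlapped (log2 fold change -0.26 ± 0.56 SE, adjusted p = 0.754), and the sign turned without control replicate 1 (log2 fold change 0.11) or shtRF replicate 3 (0.036). HOXD10 and HOXD12 were silent, and HOXD1 and HOXD13 had at most 4 counts in a library.

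For the 14 silent genes, 3 counts in the smallest library would be 0.0126 to 0.0367 RPKM, depending on exonic length. This is the bound set here and not a limit of detection, as each silent gene had 2 to 7 counts summed over the 6 libraries. It converts the cut-off of 3 counts to RPKM and includes no term for counting error. Over all 22 untested genes and 6 libraries, 87 of 132 values were 0. Of the 45 values above 0, 38 were even numbers, as single read pairs give when both mates are counted. The highest mean among these genes was 0.0119 RPKM. HOXB3, the lowest expressed gene, had at least 1.53 RPKM in every library.

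The nearest tested rows outside the clusters were also read, 3 on each side of each cluster, at distances of up to 1021656 bases. Of these 24 rows 4 were called higher and 1 lower, against 39.5% called among all tested genes, and their median log2 fold change was -0.0015. HIBADH, a valine breakdown enzyme beyond HOXA, rose by 0.38 ± 0.10 on the log2 scale (SE, adjusted p = 0.00324). KIAA1715 beyond HOXD rose by 0.33 ± 0.07 (SE, adjusted p = 0.000955). ATP5G2, a subunit gene of ATP synthase beyond HOXC, fell by 0.33 on the log2 scale (SE 0.10, adjusted p = 0.00815). The fourth higher row beside HOXC13-AS was CALCOCO2, an autophagy receptor gene beyond HOXB, named after its values were seen (0.28 ± 0.06 SE, adjusted p = 0.000502).

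Genes of the TALE cofactors that bind DNA with HOX proteins, listed with the PBX-binding protein PBXIP1, changed in both directions. Of 9 tested genes 4 were higher and 1 lower, with a median log2 fold change of 0.30, against -0.0025 over all tested genes. Without PBXIP1, 3 of 8 were higher and 1 lower. PBXIP1, which binds PBX proteins and keeps them from forming complexes with HOX proteins, rose from 80.5 ± 6.27 to 170.7 ± 15.2 CPM (mean and SD, n = 3), with log2 fold change 1.085 ± 0.07 (SE) and adjusted p = 2.02e-11. On the log2 scale PKNOX2 rose from a low level by 1.02 ± 0.30 (SE, adjusted p = 0.00904), and PBX3 rose by 0.45 ± 0.09 (SE, adjusted p = 0.000303). PBX2 fell from 30.9 ± 1.53 to 21.6 ± 2.59 CPM (log2 fold change -0.52 ± 0.08 SE, adjusted p = 1.53e-05).

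Among genes of chromatin complexes known to act on HOX clusters, 39 of 40 Polycomb entries had a tested row, with 10 higher, 14 lower and a median log2 fold change of -0.10. CBX2, a chromobox subunit of Polycomb repressive complex 1 (PRC1), fell from 36.5 ± 1.75 to 18.9 ± 0.720 CPM (mean and SD, n = 3), with log2 fold change -0.95 ± 0.07 (SE) and adjusted p = 1.31e-10. PHF19, an accessory protein of Polycomb repressive complex 2 (PRC2), fell by 0.68 (SE 0.08, adjusted p = 2.45e-07). RNF2, 1 of the alternative E3 ligases of PRC1, fell by 0.65 from 4.45 to 2.84 CPM (SE 0.13, adjusted p = 0.000446). RING1, the other ligase and named after its values were seen, had 20.7 CPM in control and 22.1 CPM in shtRF. It was not called (log2 fold change 0.09 ± 0.07 SE, adjusted p = 0.350). PCGF5, a subunit of variant PRC1 complexes, rose by 0.78 ± 0.19 (SE, adjusted p = 0.00229). EZH2, the methyltransferase of PRC2 and named after its values were seen, had 160.5 ± 6.32 CPM in control and 124.3 ± 3.88 CPM in shtRF (log2 fold change -0.37 ± 0.05 SE, adjusted p = 8.31e-06).

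The 28 Trithorax, Menin and DOT1L genes gave 7 higher and 8 lower, with a median log2 fold change of -0.020. WDR5, a core subunit of the histone H3 lysine methyltransferase complexes of the KMT2 family, fell by 0.48 (SE 0.08, adjusted p = 4.51e-05). DOT1L, another histone methyltransferase, fell by 0.47 (SE 0.06, adjusted p = 1.35e-06), and its partner gene MLLT3 fell by 0.32 (SE 0.11, adjusted p = 0.0238). KAT6A, a histone acetyltransferase, rose from 305.8 ± 13.0 to 388.3 ± 20.2 CPM (log2 fold change 0.34 ± 0.06 SE, adjusted p = 3.51e-05). The call of MLLT3 was lost without control replicate 3 (adjusted p = 0.154), shtRF replicate 1 (0.0749) or shtRF replicate 3 (0.0606).

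Retinoic acid switches HOX genes on in embryos and in cultured cells. Of 24 listed genes of its synthesis, breakdown and receptors 11 were tested, 3 were higher and 2 lower, and the median log2 fold change was 0.042. RARG, a retinoic acid receptor, fell from 8.88 ± 1.22 to 4.54 ± 0.807 CPM (log2 fold change -0.96 ± 0.13 SE, adjusted p = 3.39e-06). RDH10, which oxidises retinol, rose by 0.47 ± 0.09 (SE, adjusted p = 0.000311). DHRS3, which acts in the reverse direction, fell by 0.42 (SE 0.15, adjusted p = 0.0343), and the call was lost without control replicate 1 or 3 or shtRF replicate 1 or 3 (adjusted p between 0.0631 and 0.189). ALDH1A3, a retinaldehyde dehydrogenase, had 6, 4 and 4 counts in control and 22, 12 and 28 in shtRF libraries (log2 fold change 2.25 ± 0.59 SE, adjusted p = 0.00386). It passed the filter on low counts only through the shtRF libraries, where it is high.

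Of the CDX, EVX and ParaHox genes, homeobox genes related to the HOX clusters or acting upstream of them, 7 of 11 had a row and MNX1 alone was tested. It is named as the only tested member, and was not called (log2 fold change -0.21 ± 0.10 SE, adjusted p = 0.0859). Context lists were not tested as sets, and their counts stand beside the background share of 39.5%.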

How the data were processed

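Strand-specific mRNA libraries were sequenced as read pairs from 6 samples. The authors deposited raw counts per gene, summed over exons, and RPKM values. The submitters' processing notes name Trimmomatic 0.36, featureCounts of Subread 1.5.1, edgeR 3.12.1 and the build GRCh38, and the aligner is not given in the sources used here. Among deposited counts of 1 to 4, 74.2% to 77.1% were even, against 49.7% to 50.8% of counts of 1000 or more, so both mates of a pair appear to have been counted and low counts stand for fewer fragments. Whether counting followed strand could not be told. Of 564 rows that lie wholly in exons of genes on the other strand, 314 had at least 10 counts in every library. Such counts arise if counting followed strand, or if reads in shared bases were counted in more than 1 row. Overlap of exons is therefore given beside some genes. Of those where it is not, HOXC10 shared 9.82% of its exonic bases with other rows, HOXC9 9.71% and HOXC4 17.8%. The shares were 13.2% for HOXB3, 3.72% for HOXB2 and 16.4% for HOXA10. The RPKM values the authors deposited equalled count over length and library total for all 4991 rows compared, and were recomputed in that way for all genes.

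Counts were tested with edgeR 4.0.16 (R 4.3.3): filterByExpr with a minimum of 10 counts, TMM scaling (factors 0.961 to 1.03), a quasi-likelihood fit (glmQLFit, glmQLFTest) on group alone, and Benjamini-Hochberg adjustment over 19628 genes. The coefficient of variation between replicates was 7.56%. Alternatives used limma 3.58.1, DESeq2 1.42.0 and other scalings, filters and libraries. CPM values were computed with TMM factors. Exon overlaps were computed with bedtools 2.31.1 and Python 3.11.15. Spans of 34 of the 35 HOX rows equal those of GENCODE release 29, HOXB1 being the exception.

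The members, the lists of related genes and the motifs were chosen with earlier results of these data known. Values per library are printed for HOX genes with a mean of at least 1 RPKM or a called change over 2-fold, other HOX genes are given by class, with single values for those that were tested, and in each related list up to 4 called genes with the largest log2 fold change are named. Genes outside this rule were named after their values were seen. Some listed genes are not reported here by name. Homeobox DNA is shown where a protein sequence had been planned.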

Additional observations from a re-analysis of the deposited data

How the results depend on the processing

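Of 200 refits of single HOX genes, 176 kept the direction and the side of the threshold, 22 kept the direction but lost the call, and 2 turned the direction, both of HOXD8 (log2 fold change 0.11 without control replicate 1 and 0.036 without shtRF replicate 3, in a range from -0.68 to 0.11). HOXC10 kept its call in 16 of 16 alternatives, HOXC11 and HOXC13 in 14, HOXC9 in 8 of 16, HOXC5 in 8 of 15 and HOXA11 in 10 of 13. HOXC11 was lost under limma with log2(RPKM + 1) (adjusted p = 0.0819) and log2(RPKM + 0.1) (0.0751), each of which left 1 HOX gene higher in place of 3. HOX genes lower, 3 in the report, came to 1 with a filter of 1 CPM in at least 3 libraries and to 1 among the 7 tested genes with under 10% exon overlap. HOX genes called lower by over 2-fold came to 0 without a filter beyond 1 count, where HOXA11 kept its fold (log2 fold change -2.04, adjusted p = 0.0518), to 0 with at least 10 counts in every library, 1 CPM or halved counts, where HOXA11 was not tested, and to 0 under both limma scales, where HOXA11 was still called lower but by less than 2-fold. Leaving out 1 library gave 2 to 3 HOX genes higher, 0 to 3 lower, 0 to 2 lower and 0 to 0 higher by over 2-fold. The number of silent genes was also set to include the 4 genes with no row, which have no value here: with them it was 18 rather than 14, and 26 at 10 counts or fewer and 28 with means under 0.1 RPKM.

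With the replicate number as a block, 3 HOX genes were higher and 3 lower, with 0 and 1 over 2-fold, and no HOX call changed, while HOXC13-AS lost its call (adjusted p = 0.0514). Replicate numbers do not pair the samples: deviations of same-numbered libraries correlated at 0.018, -0.0029 and 0.0045. Under the block 2 rows outside the clusters were lower in place of 1, as under upper quartile scaling, every other filter, both limma scales and halved counts. Under limma Polycomb genes higher came to 6 on both scales, Trithorax genes higher to 3 with log2(RPKM + 1) and 4 with log2(RPKM + 0.1), Trithorax genes lower to 5 with log2(RPKM + 1), retinoic acid genes higher to 1 on both scales and lower to 1 with log2(RPKM + 0.1). Under limma other transcripts inside the clusters came to 1 higher on both scales and 5 lower with log2(RPKM + 0.1). DESeq2 gave 1 retinoic acid gene lower and, inside the clusters, 1 higher and 1 lower. Upper quartile scaling, no filter and 1 CPM also gave 1 higher inside the clusters, and upper quartile scaling gave 1 CDX, EVX and ParaHox gene lower. Leaving out 1 library gave 7 to 9 Polycomb genes higher and 12 to 15 lower, 4 to 9 Trithorax genes higher and 5 to 7 lower, 3 to 4 retinoic acid genes higher and 1 to 2 lower, 1 to 3 rows inside the clusters higher and 1 to 2 lower, and 3 to 4 rows outside higher and 1 to 2 lower. Except for settings with fewer genes or libraries, the cause of these shifts was not tested. HOXA11 and HOXD8 had at most 22 counts in a library.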
